A study of Homo sapiens with 12 samples.

Results

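The HOX genes of the HOXA, HOXB, HOXC and HOXD clusters were followed in RNA-seq counts of KELLY and SK-N-AS cells, which are human neuroblastoma (NB) cell lines. The members were all rows named HOX followed by a cluster letter and a paralogue number, with antisense and pseudogene names left out. They came to 39 of the 57167 distinct gene names in the tables. There were 11 in HOXA, 10 in HOXB, 9 in HOXC and 9 in HOXD. KELLY is *MYCN* amplified and SK-N-AS is not. Each line was grown in RPMI with fetal bovine serum and treated for 24 h with the DMSO vehicle or with Erastin, which blocks cystine uptake by system Xc- and induces ferroptosis. KELLY received 1 µM and SK-N-AS 2 µM Erastin, so that the line and the dose cannot be told apart. Each of the 4 groups held 3 samples, which the deposited design calls biological replicates and the methods describe as wells seeded in parallel. All samples of a line came from that 1 line, and the p-values measure the spread between these samples only.

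HOX genes encode homeodomain transcription factors that give cells their position along the head-to-tail axis of the embryo. Within a cluster the genes lie in the order in which they are used along this axis, with low paralogue numbers (anterior) at the 3′ end and high numbers (posterior) at the 5′ end. Neuroblastoma arises from the sympathoadrenal lineage of the trunk neural crest.

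Library totals lay between 24169796 and 29835670 counts. All 11 adrenergic neuroblastoma markers examined, among them *HAND2* and *DBH*, were above 1 CPM (counts scaled to library size) in all libraries. Among DMSO samples, their summed level was 4924 to 8449 CPM for KELLY and 1155 to 1335 CPM for SK-N-AS, and all 11 were lower in SK-N-AS. The 8 mesenchymal markers summed to 239.5 to 296 CPM in KELLY and 2529 to 2775 CPM in SK-N-AS with DMSO, and 7 of 8 were higher in SK-N-AS. *MYCN* stood at 5121 to 5721 CPM in KELLY with DMSO and at 0.272 to 0.406 CPM in SK-N-AS. Of 7 blood cell markers, 5 were at 0 in all 3 SK-N-AS DMSO libraries, and the sum of 486 to 609 CPM there came almost entirely from *PTPRC*. The epithelial keratins *KRT8* and *KRT18* were also higher in SK-N-AS. With DMSO, the 3 epithelial markers summed to 187 to 274 CPM there, against 0.0392 to 0.816 CPM in KELLY. The third, *EPCAM*, was not tested and had 0, 5 and 2 counts in SK-N-AS and 1, 10 and 10 in KELLY. Of 3 endothelial markers, only *VWF* was tested. It was higher in KELLY, with 72, 69 and 84 counts against 6, 4 and 2. The part of these cell states in the HOX differences was not tested.

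Most HOX genes were silent in both lines, and those with reads lay almost wholly in HOXC and HOXD. In all, 17 of the 39 members (43.6%) had no count in any of the 12 libraries, where 12.3% of the 19326 protein-coding rows had none. A further 5 members never exceeded 3 counts, which left 17 members above that level, and 14 reached 10 counts in at least 1 library. HOX genes summed to 3144, 4055 and 4407 counts in KELLY with DMSO and to 1964, 1832 and 1614 counts in SK-N-AS with DMSO. In CPM, this was 123 to 165 CPM in KELLY and 59.6 to 72.1 CPM in SK-N-AS, without overlap.

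**Figure D1:**
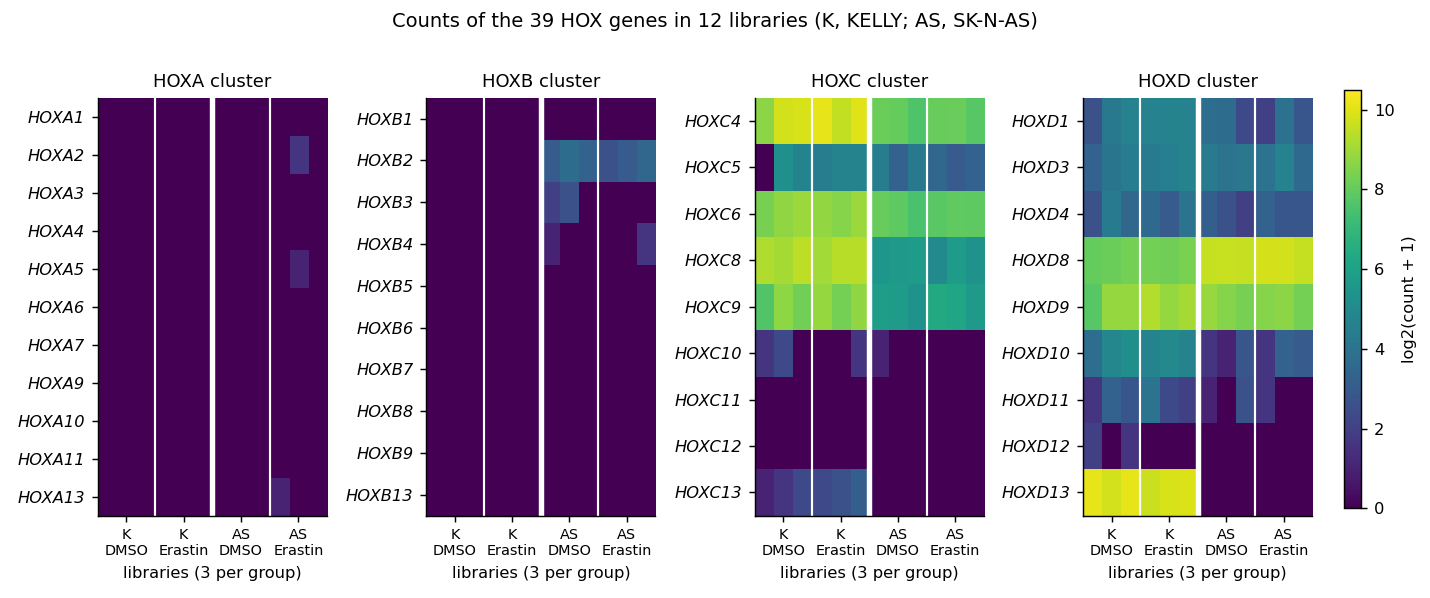
Counts of all 39 HOX genes, as log2(count + 1) in colour, with 1 row per gene ordered by paralogue number and 1 column per library (3 per group, KELLY left and SK-N-AS right of the thick line). HOXA and HOXB were almost without counts, HOXC4 to HOXC9 and HOXD8 to HOXD9 were covered in both lines, and *HOXD13* was filled in KELLY alone.

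HOXA (chr7:27092993-27200091, minus strand, GRCh38) carried 4 counts over all 12 libraries, all of them in SK-N-AS with Erastin. Of its 11 members, 8 were at 0 throughout and none exceeded 3 counts in a library. The silent members included *HOXA9* and *HOXA10*, which are widely expressed in blood progenitors. A count of 0 allows up to 3 counts in a library, which corresponded to 0.113 CPM in SK-N-AS with DMSO and 0.115 CPM in KELLY with DMSO.

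HOXB (chr17:48528526-48728750, minus strand) was at 0 in all 6 KELLY libraries. In SK-N-AS, 3 of its 10 members had counts. *HOXB2*, a gene of hindbrain patterning, had 7, 12 and 9 counts in the DMSO samples and 5, 7 and 10 in the Erastin samples. All SK-N-AS libraries therefore lay above all KELLY libraries. With KELLY at 0, *HOXB2* was at least 3.05-fold higher in SK-N-AS DMSO samples, taking 3 counts per library as the floor. Its counts were too low for the filter, and it was not tested. *HOXB3* had 3, 5 and 0 counts in the DMSO samples and none in the Erastin samples, and *HOXB4* had at most 2 counts in any library.

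HOXC (chr12:53938831-54056030, plus strand) and HOXD (chr2:176092721-176190907, plus strand) shared the remaining reads in a different balance in the lines. In KELLY with DMSO, HOXC held 54.0% ± 4.49 and HOXD 46.0% ± 4.49 of HOX counts (SD, n = 3). In SK-N-AS with DMSO, HOXC held 32.4% ± 2.12 and HOXD 66.9% ± 2.19 (SD, n = 3). The HOXC share of every KELLY library, at least 49.0%, was above the highest SK-N-AS share of 34.0%. By position, the posterior members (paralogues 9 to 13) took 45.5% ± 2.94 of HOX counts in KELLY and 24.9% ± 2.07 in SK-N-AS (SD, n = 3). The gap in the summed posterior share was not seen without *HOXD13*. With it left out of the sum and the total, a calculation added after the data were seen, the posterior share was 25.1% ± 3.86 in KELLY and 24.9% ± 2.07 in SK-N-AS. This concerns the summed share and neither single genes nor levels. Of all HOX counts with DMSO, *HOXC9* held 7.94% in KELLY and 2.74% in SK-N-AS, and *HOXD9* 9.54% and 21.8%. The posterior genes *HOXC9* and *HOXD10* were also higher in KELLY in the test below. The central members (paralogues 4 to 8) took 53.7% ± 2.65 in KELLY and 73.0% ± 2.15 in SK-N-AS. Anterior members (paralogues 1 to 3) took 0.768% ± 0.294 in KELLY and 2.13% ± 0.272 in SK-N-AS. These shares are sums of counts, which also depend on transcript length.

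Levels of different genes were compared as RPKM (CPM divided by the exon length in kilobases), with exon lengths from GENCODE release 44. In KELLY with DMSO the highest member was *HOXD13*, at 16.2 ± 1.41 RPKM (SD, n = 3), above 86.8% of protein-coding genes. *HOXC4* followed at 10.2 ± 3.87, *HOXC8* at 9.76 ± 0.518, *HOXD9* at 7.74 ± 2.82 and *HOXC9* at 7.21 ± 2.85 RPKM. The levels of these last 4 genes lay within the spread between samples of their neighbours in this order. *HOXC6* at 4.59 ± 0.816 and *HOXD8* at 4.16 ± 0.314 RPKM came next and were also within their spread. In SK-N-AS with DMSO the order began with *HOXD8* at 11.0 ± 0.531 RPKM, above 79.3% of protein-coding genes. It was followed by *HOXD9* at 7.93 ± 1.46, *HOXC4* at 3.31 ± 0.633, *HOXC6* at 2.46 ± 0.485, *HOXC9* at 1.12 ± 0.201 and *HOXC8* at 0.771 ± 0.0774 RPKM (SD, n = 3). In SK-N-AS each of these 6 genes was separated from the next by more than the larger SD of the pair. The highest mean within HOXC was that of *HOXC4* in both lines, although in KELLY it was within the spread of *HOXC8*.

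**Figure D2:**
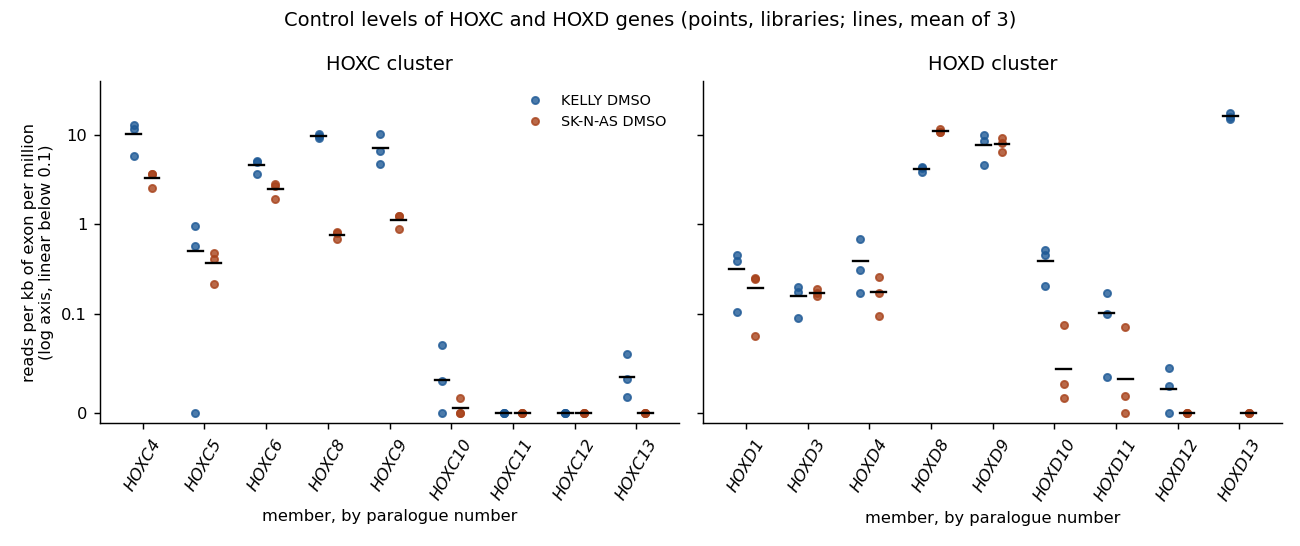
Levels of the HOXC and HOXD members in the DMSO samples, in RPKM on a log axis that is linear below 0.1, with points for libraries and lines for the mean of 3. *HOXD13* was at 16.2 in KELLY and at 0 in SK-N-AS, *HOXC8* and *HOXC9* were higher in KELLY, and *HOXD8* was higher in SK-N-AS.

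The lines were then compared in their DMSO samples with edgeR's quasi-likelihood test across all genes. Of the 17089 genes tested, 61.3% differed at a Benjamini-Hochberg adjusted p under 0.05, with 30.3% higher in SK-N-AS and 30.9% higher in KELLY. Of the 39 HOX members, 11 passed the filter on low counts and 7 of these differed, 6 of them higher in KELLY and 1 higher in SK-N-AS. This share was close to that of all genes. The median log2 difference of the 11, SK-N-AS minus KELLY, was -0.88, where that of all genes was -0.02. Both the split by direction and this median depend on the filter. *HOXD13* and *HOXD10* passed it through their KELLY counts, while *HOXB2*, seen in SK-N-AS alone, did not pass. With at least 10 counts required in every sample, 6 members were tested, of which 4 were higher in KELLY and 1 in SK-N-AS. The 7 calls comprised 4 of the 5 HOXC members tested and 3 of the 6 HOXD members tested. Both anterior members tested, *HOXD1* and *HOXD3*, were not called. In CPM, 1 of the 11 members lay higher in every SK-N-AS library than in any KELLY library and 6 lay lower, where this held for 32.8% and 33.8% of all genes. In bulk RNA, a difference in level between cells and a difference in the number of cells with the transcript cannot be told apart.

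*HOXD13*, the most posterior member of HOXD, patterns the digits and the urogenital tract. It had 1093, 886 and 1091 counts in KELLY with DMSO, and 0 in each of the 3 SK-N-AS DMSO libraries. All KELLY libraries lay near 1000 counts and no SK-N-AS library held a read, also with Erastin. Set against a floor of 3 counts per library, *HOXD13* was at least 348-fold higher in KELLY (adjusted p = 5.71e-07, edgeR). It made up 27.1% of the HOX counts of KELLY. The gene lies at chr2:176092721-176095944 and shares no exon base with another annotated gene. Its neighbour *HOXD12*, at chr2:176099795-176102489, had 3, 0 and 2 counts in KELLY with DMSO and none with Erastin, and was at 0 in SK-N-AS. *HOXC13* was also seen in KELLY alone, with 1, 2 and 4 counts in the DMSO samples and 4, 5 and 8 in the Erastin samples.

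The 250 bases before the annotated RefSeq starts of these neighbouring genes (GRCh38.p14, plus strand) are shown because 1 was among the most abundant HOX transcripts and the other nearly absent in the same KELLY cells. Capitals mark CG dinucleotides, of which there are 21 before *HOXD13* (chr2:176092471-176092720) and 16 before *HOXD12* (chr2:176099545-176099794).
HOXD13: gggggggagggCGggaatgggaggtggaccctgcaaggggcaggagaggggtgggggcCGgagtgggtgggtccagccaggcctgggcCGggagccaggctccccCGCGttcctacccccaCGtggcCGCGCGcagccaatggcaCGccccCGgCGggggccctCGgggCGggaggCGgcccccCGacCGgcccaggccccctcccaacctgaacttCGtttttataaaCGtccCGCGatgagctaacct
HOXD12: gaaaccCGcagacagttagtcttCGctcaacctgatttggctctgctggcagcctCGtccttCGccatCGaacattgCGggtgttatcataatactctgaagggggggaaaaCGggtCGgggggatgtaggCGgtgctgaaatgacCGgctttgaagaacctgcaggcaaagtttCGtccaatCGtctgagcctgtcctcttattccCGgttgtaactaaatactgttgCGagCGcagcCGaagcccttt
The median over 35116 RefSeq promoters was 11 CG dinucleotides in a window of this length. The letters TATAAA, on either strand, occurred in the *HOXD13* window of 300 bases (250 before the start and 50 after it) and not in that of *HOXD12*. They were present in 11.5% of all such windows and in 5 of the 27 windows of HOX genes, which belong to 20 genes. The other HOX windows with these letters were of *HOXA3*, *HOXA9* and *HOXA10*, which had no count in any library. CCAAT occurred in the windows of *HOXD13* and *HOXD12*, in 34.6% of all windows and in 18 of the 27 HOX windows. These sequences are those of the reference genome, and neither methylation nor factor binding was measured.

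In the middle of HOXC, *HOXC8*, which patterns the thoracic skeleton and brachial motor neurons, had 603, 547 and 701 counts in KELLY and 45, 50 and 54 in SK-N-AS. The lowest KELLY library was far above the highest SK-N-AS library. It was 12.5-fold higher in KELLY (log2 difference -3.64 ± 0.18, SE, adjusted p = 5.39e-07, edgeR). *HOXC9*, a determinant of thoracic motor neuron identity, had 202, 422 and 308 counts in KELLY and 56, 53 and 40 in SK-N-AS. It was 6.35-fold higher in KELLY (log2 difference -2.67 ± 0.32, SE, adjusted p = 1.12e-04, edgeR). KELLY samples differed among themselves by more than SK-N-AS samples did for *HOXC9*, but the groups did not overlap. Next to it on the 5′ side, *HOXC10* had 2, 4 and 0 counts in KELLY with DMSO and 1, 0 and 0 in SK-N-AS. *HOXC11* and *HOXC12* had no count in any library.

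At the 3′ end of HOXC, *HOXC4* had 410, 886 and 921 counts in KELLY and 279, 259 and 193 in SK-N-AS. It was 3.05-fold higher in KELLY (log2 difference -1.61 ± 0.31, SE, adjusted p = 0.00170, edgeR). *HOXC6*, active at the level of the forelimb, had 322, 436 and 486 counts in KELLY and 266, 236 and 179 in SK-N-AS. It showed the smallest of the 7 called differences, at 1.84-fold (log2 difference -0.88 ± 0.22, SE, adjusted p = 0.00661, edgeR). Both genes were higher in each KELLY library than in any SK-N-AS library once scaled to library size. Exons of these genes overlap on the same strand, with 17.5% of the exon bases of *HOXC4* and 16.1% of those of *HOXC6* shared with another gene. *HOXC5*, between them, shares 67.3% of its exon bases with other transcripts of the same strand. It had 0, 38 and 26 counts in KELLY and 21, 9 and 18 in SK-N-AS, and the groups overlapped (log2 difference -0.44 ± 0.88, SE, adjusted p = 0.686, edgeR). Its name stands on 2 rows, of which the second held 3 counts in 1 KELLY Erastin library and 0 elsewhere, and the first is reported.

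In HOXD, *HOXD8* was the member that was higher in SK-N-AS. It had 768, 786 and 762 counts there and 255, 284 and 317 in KELLY, with little spread in either line. The difference was 2.68-fold (log2 1.42 ± 0.15, SE, adjusted p = 5.12e-05, edgeR). *HOXD8* alone made up 43.1% of HOX counts in SK-N-AS with DMSO and 7.44% in KELLY. Of its exon bases, 24.4% lie opposite the antisense gene *HOXD-AS2*, which did not differ between the lines at the threshold (log2 difference -0.31, adjusted p = 0.385, edgeR). Its paralogue *HOXC8* was higher in KELLY.

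*HOXD10*, which acts in lumbar motor neurons, had 13, 28 and 36 counts in KELLY and 2, 1 and 6 in SK-N-AS. It was 8.30-fold higher in KELLY with a wide error (log2 difference -3.05 ± 0.63, SE, adjusted p = 0.00264, edgeR). Of its exon bases, 18.2% are shared with *HOXD11*. That gene had 2, 9 and 6 counts in KELLY and 1, 0 and 5 in SK-N-AS, and did not pass the filter. At these counts the groups overlapped for *HOXD11*.

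*HOXD9*, a posterior gene of lumbar and limb patterning, was the abundant member that did not separate the lines. It had 219, 460 and 454 counts in KELLY and 474, 389 and 324 in SK-N-AS. The groups overlapped, with a log2 difference of 0.05 ± 0.29 (SE, adjusted p = 0.885, edgeR). The low KELLY value came from DMSO replicate 1, and without that library the log2 difference was -0.22. Among the weak anterior members, *HOXD3* had 9, 16 and 21 counts in KELLY and 19, 15 and 17 in SK-N-AS (log2 difference 0.14 ± 0.39, SE, adjusted p = 0.772, edgeR). *HOXD1*, known in pain-sensing neurons of the mouse, had 5, 18 and 24 counts in KELLY and 13, 12 and 4 in SK-N-AS (log2 difference -0.69 ± 0.62, SE, adjusted p = 0.358, edgeR). For *HOXD1*, 60.1% of the exon bases lie opposite other transcripts, among them *HAGLR*, which had 818 to 920 counts in KELLY with DMSO. *HOXD4* had 5, 19 and 10 counts in KELLY and 8, 5 and 3 in SK-N-AS, and was not tested between the lines.

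Paralogue group 9 had an abundant HOXD member in both lines and a HOXC member that differed 6.35-fold, while *HOXA9* and *HOXB9* had no count in any library. The homeoboxes of *HOXD9*, *HOXC9* and *HOXB9*, the 180 bases that encode the DNA-binding homeodomain, are shown because near-identical copies can share reads. They lie in the last exon of each GENCODE transcript, at chr2:176123969-176124148 (plus strand), chr12:54002465-54002644 (plus) and chr17:48622921-48623100 (minus) of GRCh38. Capitals mark bases that differ from *HOXD9*.
HOXD9: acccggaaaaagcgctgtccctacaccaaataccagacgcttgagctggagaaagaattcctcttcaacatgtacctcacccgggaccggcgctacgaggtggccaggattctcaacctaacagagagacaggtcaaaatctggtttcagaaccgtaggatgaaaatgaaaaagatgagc
HOXC9: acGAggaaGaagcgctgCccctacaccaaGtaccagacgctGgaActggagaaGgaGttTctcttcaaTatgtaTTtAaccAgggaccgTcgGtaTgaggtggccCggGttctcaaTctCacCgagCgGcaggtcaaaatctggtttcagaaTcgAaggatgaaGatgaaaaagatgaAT
HOXB9: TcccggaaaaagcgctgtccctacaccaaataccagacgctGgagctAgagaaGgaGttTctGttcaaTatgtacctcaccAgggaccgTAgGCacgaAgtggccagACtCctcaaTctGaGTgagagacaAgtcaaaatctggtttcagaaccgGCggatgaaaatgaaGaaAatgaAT
*HOXC9* and *HOXD9* were identical at 150 of 180 positions (83.3%), and the longest run shared by their whole transcripts was 23 bases. *HOXB9* differed from *HOXD9* at 28 positions, with a longest shared run of 40 bases. In paralogue group 8, *HOXC8* and *HOXD8* were identical at 134 of 180 positions (74.4%), with a longest shared run of 15 bases. In group 13, *HOXC13* and *HOXD13* were identical at 133 positions (73.9%), with a longest shared run of 16 bases.

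With the 6 Erastin samples in place of the DMSO samples, the same 7 members differed in the same direction. A further 3 were then called, all higher in KELLY, so that 10 of 11 differed, where 63.9% of the 17122 genes tested between the Erastin samples did and 32.4% were higher in KELLY. The added members were *HOXD9* (log2 difference -0.64, adjusted p = 0.0108, edgeR), *HOXC5* (-1.51, adjusted p = 0.00360) and *HOXD1* (-1.75, adjusted p = 0.0108). As between the DMSO samples, the count of calls and their direction depend on the filter. *HOXC5*, *HOXD1*, *HOXD10* and *HOXD13* passed it through their KELLY counts, while *HOXB2*, seen in SK-N-AS alone, did not pass. The 10 of 11 therefore does not describe the family. The Erastin samples of the lines also differ in dose.

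Partners and regulators of HOX genes were also compared between the DMSO samples. Of the TALE homeodomain cofactors, which bind DNA together with HOX proteins, 6 of 8 tested (75%) differed, where 61.3% of all genes did. *MEIS1* (log2 difference 0.77) and *MEIS2* (0.62) were among the 3 that were higher in SK-N-AS, while *PBX4* (-1.54), *MEIS3* (-1.51) and *PKNOX1* (-0.42) were higher in KELLY. Among 27 Polycomb genes, whose products keep HOX clusters silent, 7 were higher in SK-N-AS and 11 in KELLY. In all, 66.7% differed, close to the share of all genes, of which 30.3% were higher in SK-N-AS and 30.9% in KELLY. The core subunits *EZH2* (-0.68), *SUZ12* (-1.52) and *EED* (-1.20) of a Polycomb repressive complex were higher in KELLY, as was *RBBP4* (-0.64), while *RBBP7* (0.42), another subunit of it, and *PCGF5* (2.20) and *PHC2* (1.60) were higher in SK-N-AS. Of 15 genes of MLL and trithorax complexes, which maintain HOX expression, 2 were higher in SK-N-AS and 5 in KELLY. In all, 46.7% differed, where 61.3% of all genes did. Among those higher in KELLY were *PSIP1* (-1.61) and *KDM6B* (-1.77). *KMT2A*, which encodes MLL itself, was not among those called.

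Retinoic acid switches on anterior HOX genes in the embryo, and of 12 genes of its pathway tested, 6 were higher in SK-N-AS and 3 in KELLY, where 30.3% and 30.9% of all genes were. *CRABP2* (log2 difference 5.23), *ALDH1A3* (4.46) and the receptor *RARB* (2.30) were higher in SK-N-AS, as was *DHRS3*, with 25, 28 and 15 counts against 0, 1 and 0. The retinol-binding protein receptor *STRA6* (-1.72) was higher in KELLY. So was the retinoic acid-degrading enzyme *CYP26B1*, with 33, 46 and 41 counts in KELLY and 1, 1 and 0 in SK-N-AS. The other degrading enzymes, which were not tested, had counts in SK-N-AS with DMSO (15, 4 and 3 for *CYP26A1* and 18, 12 and 4 for *CYP26C1*) and 0 in KELLY with DMSO. Of the 3 caudal factors, activators of posterior HOX genes, none passed the filter and only *CDX1* exceeded 3 counts, with 14, 3 and 3 in SK-N-AS with DMSO and 0 in KELLY. All calls in these lists had an adjusted p under 0.05 in edgeR's quasi-likelihood test, and the median log2 difference was 0.24 for the cofactors, -0.04 for Polycomb, -0.15 for MLL and trithorax and 0.31 for the retinoid list, against -0.02 for all genes.

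Erastin was next compared with DMSO within each line. In KELLY, 0.00615% of the 16258 genes tested, 1 gene, passed an adjusted p under 0.05 in edgeR's quasi-likelihood test, and 2.03% passed the threshold of the study's methods, an unadjusted p of at most 0.05 with a fold change of at least 1.5. That threshold was applied here to edgeR's p-values of all genes tested, whereas the study used DESeq2 on protein-coding genes. Of 12 HOX members tested, 0 passed either threshold, and 0 had an unadjusted p under 0.05 with edgeR, DESeq2 or limma-voom, where 2.64% of all genes had one with edgeR. The 12 log2 fold changes ran from -0.15 for *HOXD13* to 0.67 for *HOXD1*. Of these, 10 were positive, with a median of 0.17 against 0.01 for all genes. These members share the same libraries, and DMSO replicate 1 was the lowest KELLY library for 10 of the 12, as described below.

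The smallest p in KELLY belonged to *HOXD9*, with 219, 460 and 454 counts in the DMSO samples and 629, 463 and 540 in the Erastin samples (log2 fold change 0.56 ± 0.30, SE, adjusted p = 0.770, edgeR). Scaled to library size the groups overlapped. *HOXD3* had 9, 16 and 21 counts in the DMSO samples and 19, 22 and 25 in the Erastin samples (0.55 ± 0.39, SE, adjusted p = 0.770, edgeR). *HOXD1* had 5, 18 and 24 counts in the DMSO samples and 24, 25 and 24 in the Erastin samples (0.67 ± 0.50, SE, adjusted p = 0.770, edgeR). All of these genes had their lowest value in DMSO replicate 1. *HOXD8* had 255, 284 and 317 counts in the DMSO samples and 314, 299 and 334 in the Erastin samples. In CPM the groups did not overlap for *HOXD1*, *HOXD3* and *HOXD8*, each higher with Erastin, where 4.13% of all genes tested were so placed. *HOXD13* was lower with Erastin in all 3 samples (815, 925 and 979 counts; log2 fold change -0.15 ± 0.15, SE, adjusted p = 0.770, edgeR), where 4.3% of all genes were so placed.

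**Figure D3:**
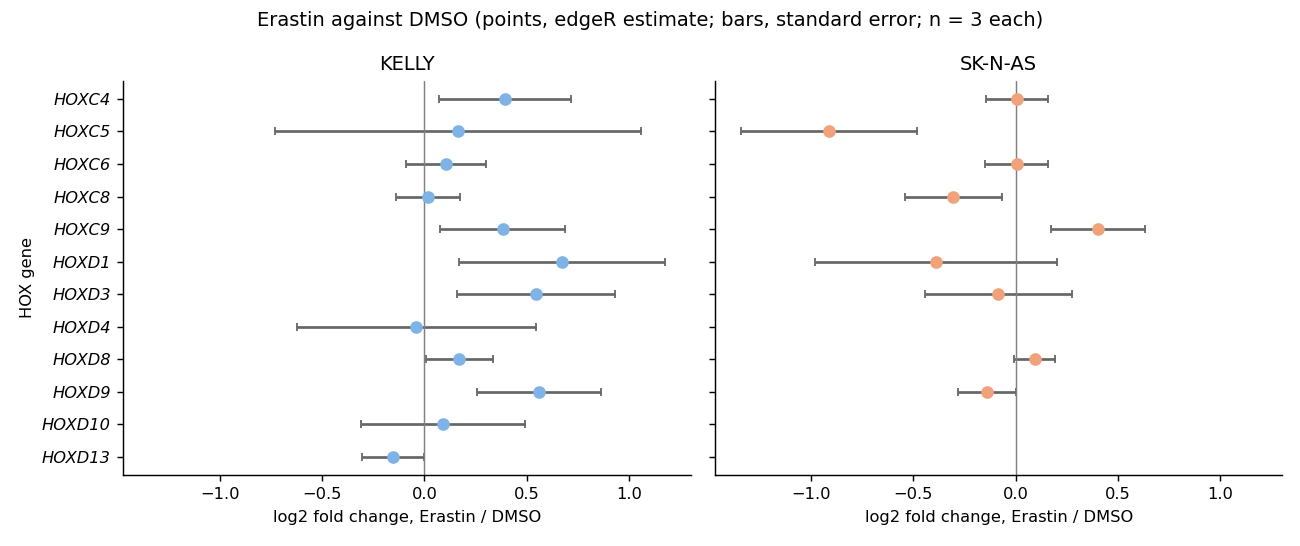
Log2 fold change of Erastin over DMSO for the HOX members tested in KELLY (left, 12 members) and SK-N-AS (right, 9 members), with points for the edgeR estimate and bars for its standard error (3 samples per group). The estimates lay between -0.15 and 0.67 for KELLY and between -0.91 and 0.40 for SK-N-AS, and none passed a threshold.

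One KELLY library stood apart in its HOX counts. KELLY DMSO replicate 1 was the lowest of the 6 KELLY libraries for 10 of the 12 members with a mean of at least 10 counts in the line, with a median deviation from the line's mean of -0.78 on the log2 scale. Its HOX sum was 123 CPM, where the other 5 KELLY libraries lay between 151 and 183 CPM. *HOXC5* was at 0 in this library alone, whereas *HOXD13* was at its highest there, at 42.9 CPM. The library also showed the steepest fall of gene level with GC content among KELLY DMSO samples, with a Spearman's rho of -0.84 across 12094 genes between GC content and the log2 ratio to the mean of the line. KELLY Erastin replicate 1, with the highest HOX sum (183 CPM), had a rho of 0.88. Across genes, which are not independent replicates, the GC content of the 12 members and their deviation in KELLY DMSO replicate 1 had a Pearson's r of -0.56. This r did not follow the rho of the libraries throughout. It was 0.54 in KELLY Erastin replicate 1, but 0.06 in KELLY Erastin replicate 2 (rho -0.68) and 0.77 in KELLY Erastin replicate 3 (rho 0.26). With GC content corrected for, the log2 fold changes of Erastin in KELLY went from 0.56 to 0.25 for *HOXD9*, from 0.55 to 0.35 for *HOXD3* and from 0.67 to 0.55 for *HOXD1*, and the part of GC content in the HOX counts was not tested. KELLY DMSO replicate 1 also had 208 counts of the blood marker *HBB*, against 2 and 1 in the other KELLY DMSO libraries. This was not particular to it, as *HBB* had 91 counts in KELLY Erastin replicate 1 and 40 in SK-N-AS Erastin replicate 1. In SK-N-AS the HOX sum moved little between libraries, from 59.6 to 72.2 CPM, and the lowest value was that of DMSO replicate 3, whose rho was -0.76 and whose r over 8 members was 0.10.

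**Figure D4:**
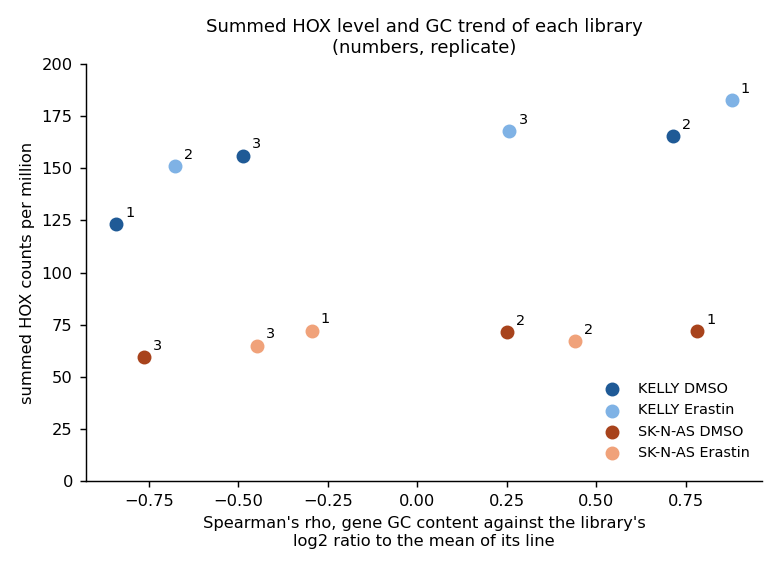
Summed HOX level of each library in CPM against the Spearman's rho of its GC trend, computed within its line, with 1 point per library, its replicate number beside it and colours for the 4 groups. In KELLY the library with the lowest rho (DMSO 1) had the lowest sum, 123 CPM, and the library with the highest rho (Erastin 1) the highest, 183 CPM, while SK-N-AS libraries lay between 59.6 and 72.2 CPM.

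In SK-N-AS, 0.659% of the 16095 genes tested, 106 genes, passed an adjusted p under 0.05, and 2.67% passed the threshold of the methods. Of 9 HOX members tested, 0 passed either threshold, and 0 had an unadjusted p under 0.05 with edgeR, DESeq2 or limma-voom, where 8.77% of all genes had one with edgeR. The log2 fold changes ran from -0.91 to 0.40, with a median of -0.09 against -0.01 for all genes. *HOXC5* had 21, 9 and 18 counts in the DMSO samples and 10, 7 and 9 in the Erastin samples (-0.91 ± 0.43, SE, adjusted p = 0.590, edgeR). *HOXC9* had 56, 53 and 40 counts in the DMSO samples and 82, 71 and 51 in the Erastin samples (0.40 ± 0.23, SE, adjusted p = 0.705, edgeR). *HOXC8* had 45, 50 and 54 counts in the DMSO samples and 32, 53 and 40 in the Erastin samples (-0.31 ± 0.24, SE, adjusted p = 0.815, edgeR). For all 9 members the Erastin and DMSO samples overlapped in CPM, while 7.76% of all genes were higher and 7.2% lower without overlap.

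The 4 abundant members of SK-N-AS had the smallest standard errors. *HOXD8* had 908, 890 and 757 counts with Erastin, with a log2 fold change of 0.09 ± 0.10 (SE, adjusted p = 0.874, edgeR). *HOXC4* had 266, 274 and 220 counts with Erastin (0.01 ± 0.15, SE, adjusted p = 0.998, edgeR). *HOXD9* had 390, 406 and 318 counts with Erastin (-0.14 ± 0.14, SE, adjusted p = 0.864, edgeR). *HOXC6* had 226, 241 and 238 (0.00456 ± 0.155, SE, adjusted p = 0.999, edgeR). Changes of 1 standard error around these values cannot be separated from none with 3 samples per group, and neither can somewhat larger ones. *HOXC9*, for example, at 0.40 ± 0.23 (SE), had an unadjusted p of 0.108 (edgeR). *HOXD13* stayed at 0 counts in all SK-N-AS samples with Erastin.

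The difference between the responses of the lines was tested as an interaction over all 12 samples, in which 0.00548% of 18239 genes tested, 1 gene, passed an adjusted p under 0.05. Of 12 HOX members tested, 0 passed, and 0 had an unadjusted p under 0.05 with edgeR, DESeq2 or limma-voom, where 4.25% of all genes had one with edgeR. The smallest p was that of *HOXD9*, with a log2 difference (SK-N-AS minus KELLY) of -0.71 ± 0.36 (SE, adjusted p = 0.811, edgeR). *HOXC8* followed at -0.33 ± 0.24 and *HOXD3* at -0.64 ± 0.50 (SE, adjusted p = 0.811 for both, edgeR). *HOXD13* is among the 12, but at 0 in SK-N-AS its interaction gave no usable estimate, and it adds nothing to the count of 0. In the lists of cofactors, Polycomb, MLL and trithorax and retinoid genes, 0 genes passed the adjusted threshold for Erastin in either line. By the threshold of the methods, *PBX4* (log2 fold change 1.17, adjusted p = 0.192, edgeR) and *DHRS3* of the retinoid list (0.86, adjusted p = 0.423, edgeR) passed in SK-N-AS, both higher with Erastin, and none passed in KELLY.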

How the data were processed

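The report rests on bulk RNA-seq of 12 samples of the KELLY and SK-N-AS cell lines, mapped to groups by their labels. The authors deposited raw counts per gene in 1 table for each line, made with HTSeq from trimmed reads (Trimmomatic) on GRCh38, per the submitters' processing notes. The strand setting of the counting was not given in the sources used here, so that reads of overlapping genes on opposite strands cannot be told apart. The tables hold 58735 rows, of which 1568 repeat a name. For a repeated name the first row was reported.

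The fits used edgeR 4.0.16 in R 4.3.3 (filterByExpr with its defaults, TMM scaling, the quasi-likelihood test, Benjamini-Hochberg adjustment over all genes tested). The line comparison used the 6 DMSO samples, each Erastin comparison the 6 samples of its line, and the interaction all 12 samples. Fold changes against a group at 0 were computed against 3 counts per library and are lower bounds. RPKM values, exon overlaps and GC content came from GENCODE release 44, which differs from the release the authors counted on. GC content was known for 88.4% to 89.1% of the genes tested in these comparisons, and 873 rows were matched by an older symbol. Promoter sequences came from RefSeq (20 HOX genes matched) and homeobox sequences from GENCODE transcripts. The scripts were tested on simulated data. A few items are not reported here.

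All 39 members were accounted for, by name or in the counts of their cluster. Full values were given for members called between the lines (at most 4 in each direction per cluster), the highest member per length in each line, and the 3 members with the smallest p in each Erastin comparison. Values of other members were added where they bear on these. Members and gene lists were chosen with earlier results of these data known. Alternatives covered scaling (RLE, or none beyond library size), tools (DESeq2 1.42.0 and limma-voom of limma 3.58.1), the filter (none, or 10 counts or more in each sample), coding genes alone, a block on the replicate number, a GC correction (loess, span 0.5) with and without that block, the Erastin samples for the line comparison, and the omission of each replicate in turn. Total counts of 24169796 to 29835670 per library put 3 counts near 0.1 CPM, and the bounds cover counting error only.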

Additional observations from a re-analysis of the deposited data

How the results depend on the processing

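The 7 members that differed between the DMSO samples kept their direction and an adjusted p under 0.05 under every alternative in which they were tested. *HOXD10* and *HOXD13* were not tested when at least 10 counts were required in every sample, since SK-N-AS samples fall short of it. Their log2 differences ranged from -1.99 to -1.40 for *HOXC4*, -1.03 to -0.72 for *HOXC6*, -3.96 to -3.54 for *HOXC8*, -2.90 to -2.32 for *HOXC9*, -3.97 to -2.22 for *HOXD10* and 1.35 to 1.47 for *HOXD8*. With no filter on low counts, 2 members were higher in SK-N-AS, *HOXB2* having joined *HOXD8*. Members outside these calls turned sign: *HOXC5* was at 0.94 with limma-voom and at 0.36 without KELLY DMSO replicate 2, and was called at -1.02 (adjusted p = 0.0473, edgeR) without KELLY DMSO replicate 1. *HOXD9* stood at -0.06 without SK-N-AS DMSO replicate 1, at -0.22 without KELLY DMSO replicate 1 and at -0.64 between the Erastin samples, with a range of -0.22 to 0.28 over left-out replicates. *HOXD3* stood at -0.12 without KELLY DMSO replicate 1 and at -0.49 between the Erastin samples, with a range of -0.12 to 0.35 over left-out replicates. The cause of these changes was not tested.

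For Erastin, 0 members passed an adjusted p under 0.05 in either line or in the interaction under any alternative. By the threshold of the methods, 2 members (*HOXC9* and *HOXD9*) passed without KELLY DMSO replicate 2, with a range of 0 to 2 over the left-out replicates. In SK-N-AS, 1 member (*HOXB3*) passed with no filter, and 1 (*HOXC5*) without SK-N-AS DMSO replicate 2, with a range of 0 to 1. *HOXD9* also had an unadjusted p under 0.05 (edgeR) in KELLY with no filter and with all 12 samples in 1 fit. The same held in SK-N-AS without DMSO replicate 3. In the interaction it held with no filter, without SK-N-AS DMSO replicate 3 and without KELLY DMSO replicate 2. The log2 fold change of *HOXD9* in KELLY lay between 0.25 (GC correction) and 0.79 (with 1 replicate left out), that of *HOXD1* between 0.26 and 1.02 and that of *HOXD3* between 0.29 and 0.75 over all alternatives.

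The replicate numbers gave no clear pairing of the samples. Deviations of same-numbered samples correlated at -0.55, -0.56 and -0.06 in KELLY and at -0.03, 0.09 and 0.17 in SK-N-AS. Between the lines they correlated at -0.32, 0.10 and -0.12. Not every sample correlated best with its own number, although replicate 3 of SK-N-AS did. In SK-N-AS a block on the replicate number lowered the biological coefficient of variation from 0.105 to 0.0904, and what same-numbered samples there share was not tested. With the replicate number as a block, the 6 members higher in KELLY and 1 higher in SK-N-AS were called as before and no member was called for Erastin, while the count over all genes went from 1 to 0 in KELLY, from 106 to 308 in SK-N-AS and from 10473 to 9041 between the lines. With the GC correction these counts were 37, 1019 and 12650. DESeq2 gave 31 calls for KELLY and 223 for SK-N-AS, and the absence of a filter 19 and 265. Leaving out 1 replicate gave 53 to 855 genes in SK-N-AS, the highest without DMSO replicate 3, and 0 to 2 in KELLY. The depth limits statements on members with few counts, among them *HOXC5*, *HOXD1*, *HOXD3*, *HOXD4* and *HOXD10*, and on the silent members of HOXA and HOXB.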

Other observations

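The non-coding genes of the HOX clusters and the genes at the clusters' edges were examined as well. Of 24 non-coding genes, 17 never exceeded 3 counts, and those with reads lay mainly in HOXD and HOXC. *HAGLR*, which runs opposite *HOXD1* and *HOXD3*, had 885, 818 and 920 counts in KELLY with DMSO and 432, 373 and 406 in SK-N-AS, and was higher in KELLY (log2 difference -1.13 ± 0.14, SE, adjusted p = 1.37e-04, edgeR). *HAGLROS*, on the strand opposite *HAGLR*, was higher in SK-N-AS, with 41, 33 and 39 counts against 2, 11 and 6 (2.52 ± 0.50, SE, adjusted p = 0.00207, edgeR). *HOXD-AS2* had 49, 41 and 45 counts in SK-N-AS and 35, 58 and 74 in KELLY (-0.31, adjusted p = 0.385, edgeR). *HOXC-AS1* had 5, 13 and 3 counts in KELLY with DMSO and 5, 2 and 0 in SK-N-AS. *HOXB-AS1* had 2, 0 and 5 counts in SK-N-AS with DMSO, the only group in which it was seen.

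Of 14 genes beside the clusters, 10 were tested between the lines and 8 of them (80%) differed, where 61.3% of all genes did, with 5 higher in SK-N-AS and 3 in KELLY (30.3% and 30.9% of all genes). At the posterior edge of HOXD, the homeobox gene *EVX2* had 6, 5 and 6 counts in KELLY with DMSO and 0 in SK-N-AS, as *HOXD13* beside it. *LNPK*, farther out on that side, had 3770, 2246 and 3114 counts in KELLY and 1101, 1018 and 1389 in SK-N-AS (log2 difference -1.40 ± 0.21, SE, adjusted p = 3.76e-04, edgeR). *MTX2*, on the anterior side, had 1082, 882 and 977 counts in KELLY and 981, 1062 and 1149 in SK-N-AS, and the groups overlapped. Beside HOXB, *TTLL6* had 74, 54 and 83 counts in SK-N-AS with DMSO and 0 in KELLY. Beside HOXA, *HIBADH* (0.90) and *SKAP2* (2.08) were higher in SK-N-AS. Beside HOXC, *SMUG1* (0.77) was higher in SK-N-AS and *CBX5* (-0.58) and *HNRNPA1* (-0.46) in KELLY. *CALCOCO2* (1.15), beside HOXB, completed the 5 that were higher in SK-N-AS. None of these genes passed an adjusted p under 0.05 for Erastin in either line (edgeR), although *TTLL6*, with 37, 17 and 29 counts in the SK-N-AS Erastin samples, passed the threshold of the methods (log2 fold change -1.38, adjusted p = 0.0685).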
